A study of Mus musculus and Rattus norvegicus with 79 samples.

Results

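The effect of insulin on top of dexamethasone was measured in primary hepatocytes of male Sprague Dawley rats, which are liver cells kept in short-term culture. The comparison rests on 6 of the 79 samples of the series, chosen by their labels: 3 libraries of cells given dexamethasone and human insulin (Dex+Ins) and 3 of cells given dexamethasone without added insulin (Dex). Dexamethasone, a synthetic glucocorticoid that activates the glucocorticoid receptor, was at 500 nM for 2.5 h, and insulin was present for 2 h at a concentration that the labels do not state. Beside them stood 3 libraries of cells given insulin alone (Ins) and 3 of vehicle-treated cells (Vehicle), whose columns carry the name of ethanol. Cells of all 4 groups had been plated with 100 nM dexamethasone, 1 nM insulin and 4% fetal calf serum, kept overnight with 1 nM insulin and 0.1% serum, and then depleted of serum for 4 h. The vehicle and Dex cells had therefore met both hormones before the test. The labels give the RNA of these libraries as polyadenylated. The other samples of the series are mouse liver. Libraries of a group are called A, B and C after the column names, and the labels do not say whether they came from separate rats or from separate dishes, so p-values measure only the spread between these libraries, which may be technical.

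In hepatocytes insulin acts through its receptor, the IRS adaptors and the kinase AKT, which keeps the transcription factor FOXO1 out of the nucleus and so lowers genes of glucose production, and it raises genes of lipid synthesis through SREBP-1c. Glucocorticoids act through a nuclear receptor that raises genes of glucose production and amino acid breakdown, and several genes are known to be raised by one hormone and lowered by the other. The rat table names its rows by RefSeq transcript accession and does not pair them with gene names. The annotation used here was of the mouse, so rat accessions could not be translated to genes with it. Transcripts are therefore described by level, rank and response, with 4 identifiers printed, and no row is tied to a gene or pathway. For the same reason the label hepatocyte was not checked against marker genes.

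Total counts were 16.03 to 18.86 M in Dex+Ins libraries and 9.804 to 24.22 M in Dex libraries, the lowest being Dex C and the highest Dex A, and 11.95 to 20.95 M in the Ins and Vehicle libraries. Of 14132 distinct rows, 10843 had enough counts to be tested. The first principal component of log2 level held 30.8% of the variance. It placed Dex+Ins libraries at 3.61 to 7.73 and Dex libraries at 14.9 to 19.7. The second, with 23.2%, placed Dex+Ins libraries at -13.7 to -16.9 and Dex libraries at 4.85 to 6.36. Libraries of a group differed by more than sampling noise in every pair. The chi-square statistic over its degrees of freedom was 20.4 and 21.4 for the pairs that hold Dex+Ins A and 2.11 to 5.8 for the other pairs of a group, where counting noise alone gives about 1. In Dex+Ins A, NM_001025002 had 111159 counts, against 3241 and 2827 in B and C, and NR_046239 had 79474, against 2322 and 2063. Their share of the statistic was not computed. The correlation of log2 level was 0.9948 and 0.9939 for the pairs that hold Dex+Ins A and 0.9945 to 0.9967 for the others. The biological coefficient of variation over all groups was 0.0504.

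Adding insulin to dexamethasone changed the level of many transcripts by a small amount and of few by a large one. Of 10843 transcripts tested, 1217 rose and 1289 fell, which is 23.1% of those tested (edgeR quasi-likelihood test, adjusted p under 0.05), or 11.2% higher and 11.9% lower. The median log2 fold change, Dex+Ins over Dex, was 0.25 among those that rose and -0.23 among those that fell, and the median over all tested was 0.00. At least 1.5-fold changes were found for 110 that rose and 118 that fell, and at least 2-fold changes for 27 that rose and 32 that fell. Changes of at least 4-fold were found for 9 that rose and 8 that fell, and 4 of these falls reached 8-fold. Of the 9 rises, 5 had over 3 times the level in Dex+Ins A than in either other Dex+Ins library. The libraries of the groups did not overlap for 2404 of the 2506 transcripts past the threshold, 1160 of them higher and 1244 lower. Among all tested, 36.7% did not overlap, 17.8% higher and 18.9% lower. The number past the threshold was 2363 without Dex+Ins A, with 2095 of these shared with the full fit, and 1622 without Dex A, the most deeply sequenced library, and 1571 of these transcripts were shared with the full fit, each in the same direction.

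**Figure D1:**
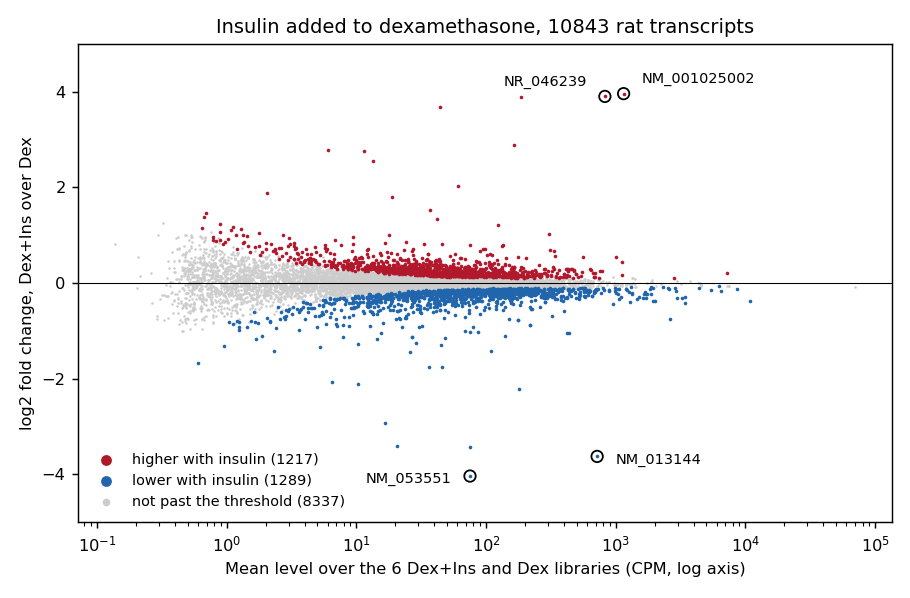
Log2 fold change of Dex+Ins over Dex (vertical axis) against the mean level over the 6 libraries in CPM (counts scaled to a common library size, log axis), 1 point per transcript. The 1217 transcripts that rose and the 1289 that fell lie mostly within 0.5 of 0, and the 4 circled transcripts are those named in the text.

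The largest fall was that of NM_053551, an mRNA row. Its level was 7.426, 8.995 and 9.578 CPM (the count scaled to a common library size) in Dex+Ins libraries A, B and C, and 147.9, 131.9 and 145.5 CPM in Dex libraries. Every Dex+Ins library thus lay far below every Dex library, and the log2 fold change was -4.04 ± 0.08 (± SE, adjusted p = 1.16e-19), a 16.4-fold difference. In Ins cells it was at 10.4 ± 1.46 CPM and in Vehicle cells at 34.4 ± 1.86 CPM (SD, n = 3 each). It was higher in Dex than in Vehicle cells, at 2.05 ± 0.07 (adjusted p = 3.96e-16), in a comparison that shares the Dex libraries and in which 612 transcripts were higher (5.64%) and 527 lower (4.86%), 10.5% in all. The Dex+Ins libraries, at 7.43 to 9.58 CPM, overlapped the Ins libraries, at 8.89 to 11.8 CPM.

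NM_013144, also an mRNA row, fell almost as far and was more abundant. It was at 112.3, 109.3 and 101.5 CPM in Dex+Ins libraries, against 1266, 1319 and 1407 CPM in Dex libraries, with no overlap. The log2 fold change was -3.63 ± 0.07 (adjusted p = 3.96e-20), the smallest p-value of the comparison. Ins cells held 45.4 ± 5.07 CPM and Vehicle cells 247.2 ± 13.7 CPM (SD, n = 3 each). Dex over Vehicle was 2.43 ± 0.06. Unlike those of NM_053551, its Dex+Ins libraries lay above all Ins libraries.

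**Figure D2:**
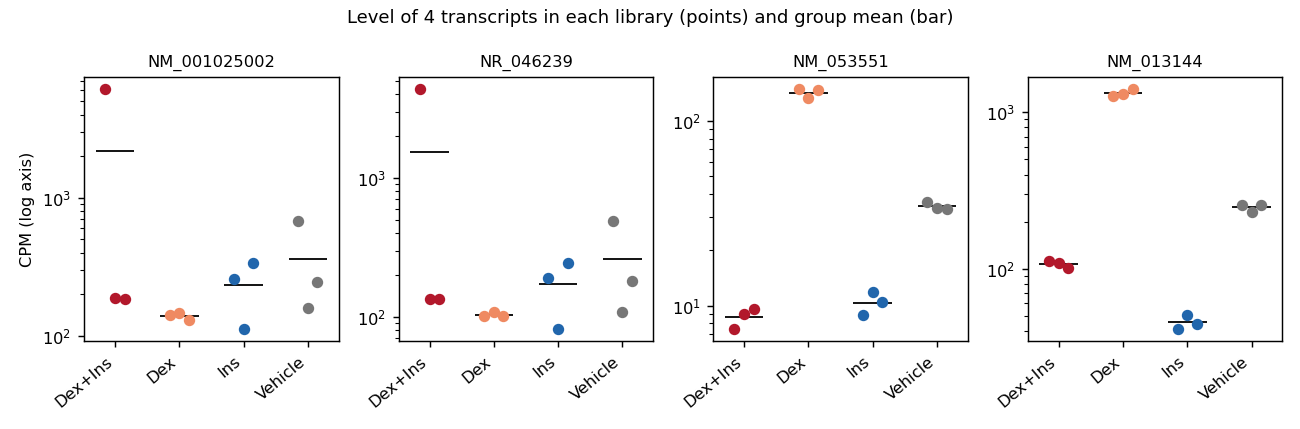
Level of the 4 named transcripts in each of the 12 libraries (points, CPM on a log axis) with group means (bars), groups from left to right Dex+Ins, Dex, Ins and Vehicle. The Dex+Ins libraries of NM_053551 and NM_013144 lie together and below the Dex libraries, whereas 1 of the 3 Dex+Ins libraries of NM_001025002 and NR_046239 lies far above the other two.

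The largest rises were not shared by the 3 libraries. NM_001025002, an mRNA row, was at 6114, 188.1 and 182.9 CPM in Dex+Ins libraries A, B and C and at 141.1, 145.1 and 129.5 CPM in Dex libraries. NR_046239, a row of a non-coding RNA by its prefix, was at 4371, 134.8 and 133.5 CPM in Dex+Ins libraries and at 101.3, 107.6 and 101.2 CPM in Dex libraries. For both, Dex+Ins A alone was high and the other two Dex+Ins libraries lay just above the Dex libraries. The fitted log2 fold changes of 3.96 ± 0.90 (adjusted p = 0.00299) and 3.90 ± 0.90 (adjusted p = 0.00331) became 0.41 (adjusted p = 0.488) and 0.37 (adjusted p = 0.553) without Dex+Ins A. DESeq2 gave no adjusted p for them. The ratio of the 2 rows was 1.28 to 1.46 in all 12 libraries, and whether they count the same reads was not tested. In Ins libraries A, B and C NM_001025002 was at 255.7, 110.8 and 333.7 CPM and in Vehicle libraries at 674.1, 158.7 and 245.1 CPM, so it also varied within the groups without dexamethasone.

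Rises shared by all 3 libraries began with the transcript ranked 3 by size, where ranks count only transcripts of at least 5 CPM whose Dex+Ins and Dex libraries did not overlap. It was at 10.9, 10.3 and 10.7 CPM in Dex+Ins libraries and 1.54, 1.83 and 0.98 CPM in Dex libraries, with a log2 fold change of 2.78 ± 0.17 (adjusted p = 4.57e-11). It averaged 15.8 ± 1.15 CPM in Ins and 2.91 ± 0.97 CPM in Vehicle cells (SD, n = 3 each). The transcripts ranked 4 and 5 were highest where both hormones were present, and rose less with insulin alone, by 1.19 ± 0.20 and 0.93 ± 0.16 over Vehicle. Rank 4 averaged 20.0 ± 0.58 CPM in Dex+Ins, 2.86 ± 0.41 CPM in Dex, 4.797 ± 0.49 CPM in Ins and 2.26 ± 0.81 CPM in Vehicle cells (SD, n = 3 each). Rank 5 averaged 23.0 ± 0.83 CPM in Dex+Ins, 3.85 ± 0.29 CPM in Dex, 5.59 ± 0.75 CPM in Ins and 3.06 ± 0.64 CPM in Vehicle cells. Their log2 fold changes over Dex were 2.77 ± 0.13 and 2.55 ± 0.11. The levels of ranks 4 and 5 were alike in each group, and whether they count the same reads was not tested.

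Ranks 6, 7 and 8 had the same order of mean levels as rank 3. Each was highest in Ins cells, lower in Dex+Ins cells, lower again in Vehicle cells and lowest in Dex cells. Rank 6 averaged 97.6 ± 7.11 CPM in Dex+Ins and 24.1 ± 1.93 CPM in Dex cells, with 146.9 ± 0.19 CPM in Ins and 36.6 ± 4.28 CPM in Vehicle cells. Its log2 fold change was 2.03 ± 0.07, and those of ranks 7 and 8 were 1.79 ± 0.08 and 1.52 ± 0.06. Dex was below Vehicle for ranks 6, 7 and 8, at -0.63 ± 0.08, -0.76 ± 0.10 and -0.69 ± 0.07, and for rank 3, at -0.90 ± 0.23 (adjusted p = 0.00998).

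All 6 falls ranked 3 to 8 also passed the threshold with insulin alone. Ranks 3, 4 and 6 were far higher in Dex cells than in the other 3 groups. Rank 3 was at 12.2, 13.1 and 12.7 CPM in Dex+Ins libraries and 149.1, 114.6 and 146.9 CPM in Dex libraries, with Ins at 8.60 ± 1.53 CPM and Vehicle at 36.3 ± 4.09 CPM, and its log2 fold change was -3.43 ± 0.10. Rank 4 averaged 3.51 ± 0.56 CPM in Dex+Ins and 37.6 ± 3.09 CPM in Dex cells (-3.41 ± 0.11), with 2.98 ± 0.48 CPM in Ins and 5.12 ± 0.73 CPM in Vehicle cells, so its Dex+Ins and Ins libraries overlapped. Rank 6 averaged 63.8 ± 2.84 CPM in Dex+Ins and 296.7 ± 21.9 CPM in Dex cells (-2.21 ± 0.06), with 22.95 ± 1.52 CPM in Ins and 43.7 ± 2.10 CPM in Vehicle cells. Ins over Vehicle was -2.07 ± 0.13, -0.80 ± 0.16 and -0.92 ± 0.07 for ranks 3, 4 and 6.

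Ranks 5, 7 and 8 differed less between Dex and Vehicle cells, at -0.05 ± 0.10, -0.41 ± 0.10 and 0.28 ± 0.12. Rank 5 averaged 3.81 ± 0.75 CPM in Dex+Ins and 29.4 ± 5.15 CPM in Dex cells, and 3.55 ± 0.61 CPM in Ins and 29.6 ± 3.31 CPM in Vehicle cells. Its log2 fold change was -2.92 ± 0.14 for Dex+Ins over Dex and -3.06 ± 0.15 for Ins over Vehicle. For rank 7 these values were -2.11 ± 0.14 and -2.43 ± 0.13, and for rank 8 they were -2.07 ± 0.14 and -2.15 ± 0.16. The difference between the 2 insulin effects was 0.13 ± 0.23, 0.32 ± 0.21 and 0.08 ± 0.24 for the 3 transcripts, none past the threshold (adjusted p = 0.876, 0.618 and 0.929).

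**Figure D3:**
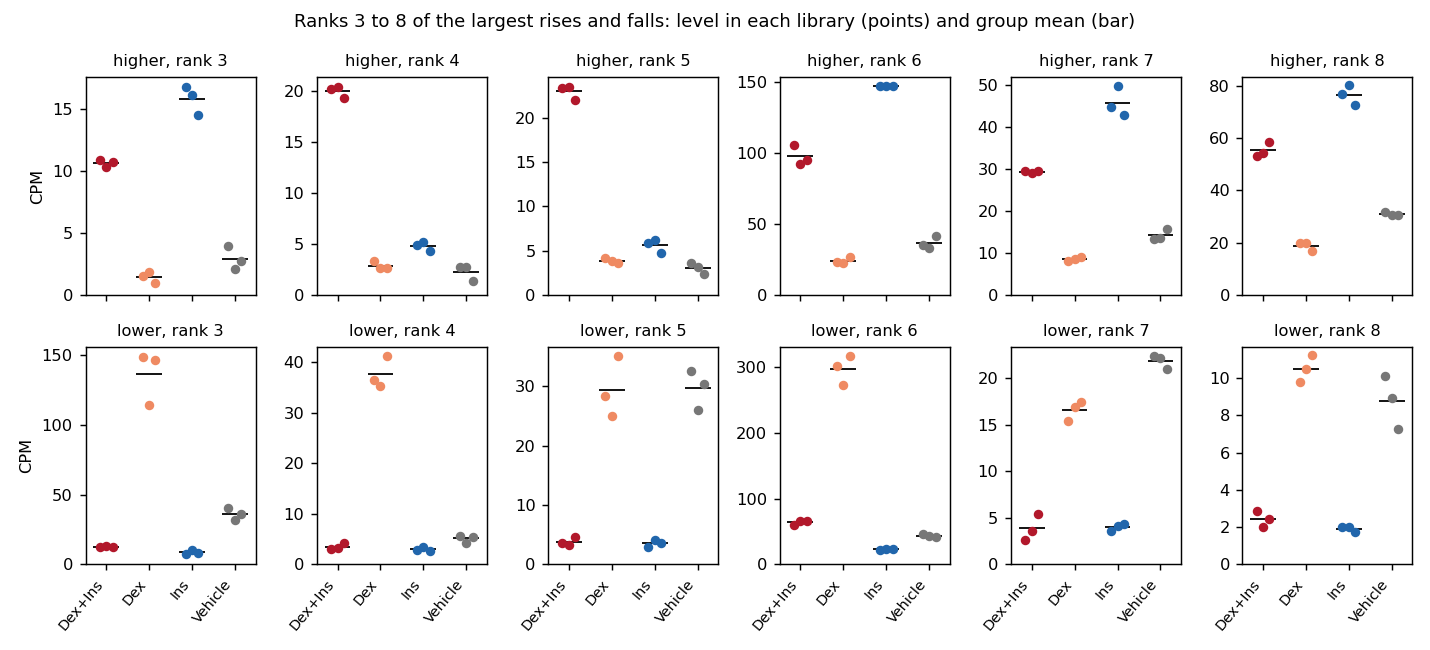
Level in each library (points, CPM from 0) and group mean (bar) of the transcripts ranked 3 to 8 among the largest rises (upper row) and falls (lower row), groups from left to right Dex+Ins, Dex, Ins and Vehicle. Rises ranked 4 and 5 are highest in Dex+Ins cells, and falls ranked 3, 4 and 6 are highest in Dex cells.

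Direction varied with level. Among the 2047 transcripts with a mean of at least 100 CPM, 262 rose and 503 fell, and 37.4% in all passed the threshold. From 20 to 100 CPM 664 rose and 563 fell, from 5 to 20 CPM 213 rose and 172 fell, from 1 to 5 CPM 66 rose and 49 fell, and under 1 CPM 12 rose and 2 fell. With upper quartile scaling the numbers from 100 CPM up were 275 and 460. The standard error set what could pass: its median was 0.04 from 100 CPM up and 0.37 under 1 CPM, where the median size of the changes past the threshold was 1.09. Non-coding rows (prefix NR) passed in 19.4% of 98 cases, with 14 higher and 5 lower, and mRNA rows (prefix NM) in 23.1% of 10745 cases, at a median level of 4.08 CPM for NR and 31.7 CPM for NM rows.

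**Figure D4:**
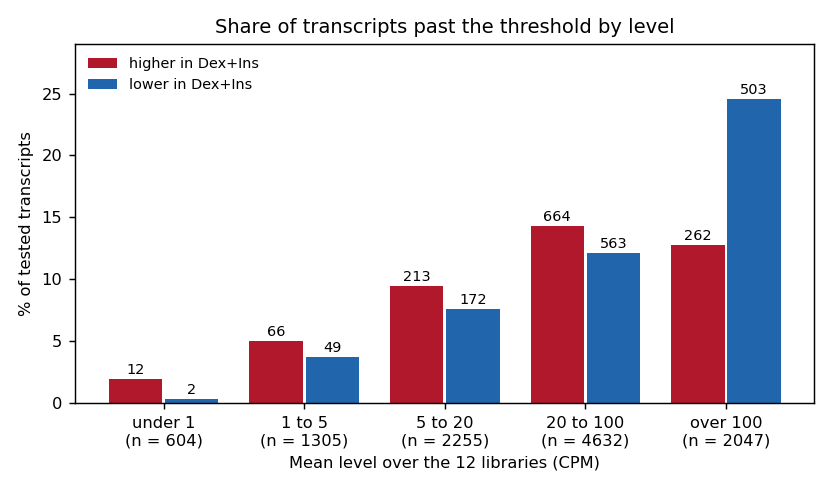
Share of tested transcripts that were higher (red) or lower (blue) in Dex+Ins than in Dex cells (vertical axis, percent) by mean level over the 12 libraries (horizontal axis, CPM), with the number of transcripts above each bar. In the highest class 503 fell and 262 rose, and in each lower class more rose than fell.

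As a share of the library, fewer reads went to the transcripts that rose than to those that fell. The 1217 that rose summed to 121887, 111978 and 113340 CPM in Dex+Ins libraries A, B and C and to 93855, 95975 and 93684 CPM in Dex libraries. Of the sum in Dex+Ins A, 12530 CPM came from 5 transcripts that were over 3 times higher there than in B or C. The 1289 that fell summed to 234680, 232971 and 231386 CPM in Dex+Ins libraries and to 275543, 273611 and 275030 CPM in Dex libraries. These sums follow from how the transcripts were chosen. In the Ins and Vehicle libraries, which entered the same fit and its filter and dispersions but not the contrast, the first set summed to 111910 to 114018 CPM in Ins and 97917 to 98697 CPM in Vehicle cells, and the second to 230613 to 239670 CPM in Ins and 253698 to 255968 CPM in Vehicle cells, without overlap in either set. The 10 largest losses made up 24.9% of the summed loss of 41716 CPM. For gains, the 10 largest made up 30.1% of 21230 CPM, in group means that include Dex+Ins A.

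Insulin without dexamethasone was then set beside it, as that comparison shares no library with the first. Of the 10843 transcripts, 938 were higher (8.65%) and 853 lower (7.87%) in Ins than in Vehicle cells, 16.5% in all, and 1167 passed without Ins C. Of the 2506 transcripts that changed on top of dexamethasone, 1132 also changed with insulin alone in the same direction, which is 45.2% of these and 63.2% of the 1791. Of the transcripts past both thresholds, 1 went the opposite way. The direction was shared by 92.0% of the 2506, whether past the threshold with insulin alone or not, and by 70.8% of all tested. Transcripts that rose on top of dexamethasone had a median log2 fold change of 0.25 there and 0.18 with insulin alone, and those that fell -0.23 and -0.14. Transcripts that rose with insulin alone had a median of 0.20 on top of dexamethasone and 0.25 with insulin alone, and those that fell -0.21 and -0.24. In each case the median was farther from 0 in the comparison that chose the transcripts, so these medians do not rank the 2 insulin effects. Across all 10843 transcripts, which share libraries and are not independent, Pearson's r between the 2 insulin effects was 0.55 and Spearman's rho 0.55. For the 8934 with at least 5 CPM these were 0.69 and 0.65, and for the 2047 with at least 100 CPM 0.52 and 0.70. Both sets hold NM_001025002 and NR_046239, which were high in Dex+Ins A alone. Their values were 3.96 and 3.90 on top of dexamethasone and -0.62 and -0.59 with insulin alone. Pearson's r without these rows was not computed, so its lower value from 100 CPM up is not read as weaker agreement.

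Of the 32 that fell at least 2-fold on top of dexamethasone, 30 also fell with insulin alone (93.8%), and all 32 had a negative log2 fold change there, with a median of -1.31 on top of dexamethasone and -1.06 with insulin alone. Of the 27 that rose at least 2-fold, 16 also rose with insulin alone (59.3%), with medians of 1.37 and 0.70. By mean level over the 12 libraries, 6 of these rises lay under 1 CPM and 6 from 1 to 5 CPM. Of the 32 falls, 2 and 3 did. The median standard error on top of dexamethasone was 0.37 and 0.20 at these levels. The shares of 59.3% and 93.8% are therefore not read as a difference between rises and falls. Among those 27 were 5 transcripts with over 3 times the level in Dex+Ins A than in either other Dex+Ins library. Without Dex+Ins A, 21 transcripts rose and 44 fell at least 2-fold.

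Whether the effect of insulin differed with and without dexamethasone was asked with an interaction term (edgeR). Past the threshold were 72 of 10843 transcripts (0.664%), of which 63 (0.581%) had a lower and 9 (0.083%) a higher log2 fold change with dexamethasone than without. The number past the threshold was 45 without Vehicle A, 47 without Vehicle B, 45 without Ins C and 109 without Ins A. Of the 72, 64 had passed on top of dexamethasone and 38 with insulin alone. The largest pattern, with 36 transcripts, was a fall in both settings that was larger with dexamethasone, at medians of -0.65 with and -0.22 without. Patterns were sorted by sign, whether or not a value passed the threshold by itself. Another 18 had a negative value with dexamethasone (median -0.41) and a positive one without (median 0.08). Of these 18, 17 passed with dexamethasone and only 2 without, so most are not shown to rise without it. In 9, insulin gave a positive value in both that was smaller with dexamethasone, at medians of 0.11 with and 0.51 without. Of these 9, 2 passed with dexamethasone and 9 without. The 9 with a higher value with dexamethasone were 4 that were positive in both (medians 1.79 with and 0.79 without) and 5 that were positive with dexamethasone (median 0.29) and negative without (median -0.12). Of these 5, 5 passed with dexamethasone and 0 without.

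**Figure D5:**
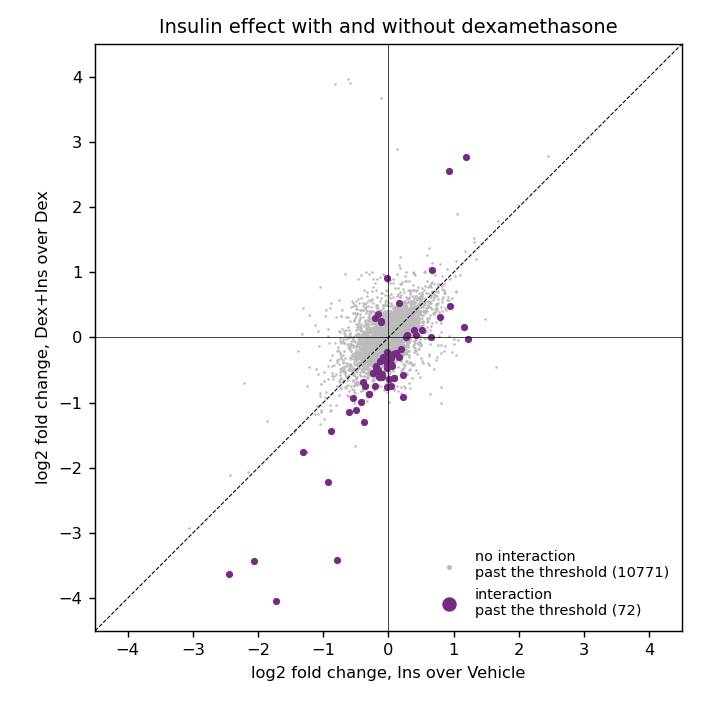
Log2 fold change of Dex+Ins over Dex (vertical axis) against that of Ins over Vehicle (horizontal axis) for 10843 transcripts, with the line of equal effects dashed. Of the 72 transcripts with an interaction past the threshold (purple), 63 lie below the line and 9 above it.

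Both named transcripts that fell were among the 5 with the smallest p-values for the interaction. Both had been chosen for the size of the fall on top of dexamethasone, which enters the interaction. NM_053551 was at -4.04 ± 0.08 on top of dexamethasone and at -1.72 ± 0.09 with insulin alone, a difference of -2.32 ± 0.13 (adjusted p = 2.33e-10). NM_013144 was at -3.63 ± 0.07 and -2.44 ± 0.07, a difference of -1.18 ± 0.09 (adjusted p = 1.89e-08). The fall ranked 6 was another member, at -2.21 ± 0.06 and -0.92 ± 0.07, a difference of -1.29 ± 0.09 (adjusted p = 5.77e-09). The falls ranked 3 and 4 also passed, with differences of -1.36 ± 0.18 (adjusted p = 0.000122) and -2.62 ± 0.21 (adjusted p = 8.56e-08). The value of -2.62 was the lowest of all transcripts past the interaction threshold. For the rises ranked 4 and 5, which were highest with both hormones, the differences were 1.57 ± 0.26 (adjusted p = 0.00314) and 1.63 ± 0.20 (adjusted p = 8.62e-05).

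The transcript with the smallest interaction p-value did not pass on top of dexamethasone at all. It was at 1080, 1064 and 1099 CPM in Dex+Ins libraries and 1103, 1070 and 1137 CPM in Dex libraries, which overlap (log2 fold change -0.03 ± 0.04, adjusted p = 0.615). Without dexamethasone it rose with insulin, at 423.3, 439.4 and 444.3 CPM in Ins libraries and 195.0, 185.5 and 183.6 CPM in Vehicle libraries (1.21 ± 0.04). The difference was -1.24 ± 0.05 (adjusted p = 1.41e-12). The transcript ranked 3 by this p-value passed on top of dexamethasone and not with insulin alone. It was at 1947, 1941 and 1954 CPM in Dex+Ins libraries and 3277, 3112 and 3436 CPM in Dex libraries (-0.75 ± 0.04), and averaged 781.2 ± 6.57 CPM in Ins and 761.6 ± 27.2 CPM in Vehicle cells (0.04 ± 0.04, adjusted p = 0.523).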

How the data were processed

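RNA sequencing of 12 rat hepatocyte libraries was used. The authors deposited raw counts per RefSeq transcript, 1 column per library. STAR, HOMER, DESeq2 and the rat build rn5 are named, without roles or versions, per the submitters' processing notes. No source used here states strand use or how reads shared between rows were treated, so overlapping or antisense genes and near-identical family members cannot be told apart. Of 18269 rows, 2565 were all 0 and 1573 others repeated another row, and 1 of each set was kept (14132 rows). The columns named for ethanol were taken as the vehicle group.

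All 4 groups entered 1 fit in R 4.3.3 with edgeR 4.0.16: filterByExpr, TMM factors and the quasi-likelihood F-test, two-sided, with Benjamini-Hochberg adjustment over all 10843 rows tested. Each standard error is the absolute log2 fold change divided by the root of its F statistic. CPM use TMM-scaled library sizes of the tested rows. The fit was also run on simulated counts drawn with its own dispersions, and the outcome is not given here. Such counts cannot show how the fit treats rows that are high in 1 library only. DESeq2 1.42.0 was an alternative. Identifiers and ranks come from a rule: the 8 largest rises and falls among transcripts that passed the threshold, averaged 5 CPM or more and had non-overlapping libraries, and the 5 smallest interaction p-values, with identifiers for the first 2 in each direction. Pathway and cell type lists were not applied, as no rat table of accessions and gene names was at hand. The comparison and the rule were chosen with earlier results of these data known. Mouse data were not used.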

Additional observations from a re-analysis of the deposited data

Results flagged for a closer look

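The effect of insulin differed with and without dexamethasone for 72 transcripts by the interaction test (edgeR). Of the named transcripts, NM_053551 had an interaction of -2.32 ± 0.13 (log2, ± SE) and NM_013144 of -1.18 ± 0.09, each with a larger fall on top of dexamethasone than with insulin alone. The larger fall started higher, at 141.8 CPM in Dex against 34.4 CPM in Vehicle cells for NM_053551, and 1331 against 247.2 CPM for NM_013144. It did not end clearly lower, at 8.67 CPM in Dex+Ins against 10.4 CPM in Ins cells, with overlapping libraries, and 107.7 against 45.4 CPM. In each, the 3 Ins libraries lay below the 3 Vehicle libraries. The 3 Dex+Ins libraries lay below the 3 Dex libraries, which the rule that named these transcripts required. That rule also took the largest falls on top of dexamethasone, which enter the interaction and so favour a large one.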

How the results depend on the processing

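With 3 libraries a group and totals of 9.804 to 24.22 M, small changes of low transcripts were not detectable. The 2506 transcripts that changed on top of dexamethasone became 1622 to 2363 when 1 library was left out, 59 when a 2-fold change was also asked for, 1964 with DESeq2, and 2281 to 2602 under the other settings run. With the shared letter as a replicate block the number was 2391, and the block changed no call of a named transcript, although it moved NM_001025002 to 2.60 and NR_046239 to 2.55. The main fit had no such block, and the labels do not say that a letter pairs libraries. Libraries of the same letter in Dex+Ins and Dex correlated at 0.00, 0.06 and 0.08 in their deviations from group means. Of these 6 libraries, 4 correlated best with their own letter, and whether the letters pair libraries was not tested. Insulin alone gave 1167 to 1633 with 1 library left out and 40 with the 2-fold requirement. The interaction gave 45 to 109 and 9. Dexamethasone alone gave 1139, 856 to 982 with 1 library left out, and 95 with the 2-fold requirement. The number that rose at least 2-fold, 27, was 13 with DESeq2, 44 with no filter on low counts and 17 with at least 50 counts in at least 3 libraries. NM_053551 and NM_013144 were past the threshold in every setting run, at -4.11 to -3.93 and -3.66 to -3.58 when 1 library was left out. Dropping 186 rows that nearly copied another, chosen after seeing the data, left 2479. One row per gene was not run, for want of a rat table of accessions and gene names.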

Other observations

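Over the 12 libraries, Dex+Ins A was the one that held transcripts (at least 5 CPM) with over 3 times the level of both other libraries of its group. There were 5 of them, summing to 12530 CPM in that library, all 5 past the threshold and over 4-fold higher in Dex+Ins than in Dex cells. They made up 5 of the 9 rises of at least 4-fold.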
